A study of Mus musculus with 13 samples.

Results

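The genes described here are 49 cell cycle genes that cells use to copy their DNA and to divide. They come from a list of genes of known role and were matched by symbol to 49 of the 54232 Ensembl genes of the deposited expression table. They were ordered by role: 4 transcription factors, 5 genes of the G1 cyclins and Cdk2, 10 of origin licensing and the replicative helicase, 5 of nucleotide supply and the sliding clamp, and 25 of mitosis. All 49 passed the filter for testing, which asked for 1 FPKM in at least 1 library. FPKM is a read count divided by transcript length and library size. For most genes the length was the mean over annotated transcripts, such as 1696 bases for Top2a, whose exons together cover 9013 bases. Levels of 1 gene can be compared between libraries, but levels of different genes only roughly.

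The study followed the chemical conversion of mouse fibroblasts into cells resembling the corneal endothelium, a sheet of cells lining the back of the cornea, by RNA sequencing of 13 libraries of the C57BL/6 strain. The starting cells (D0, 3 libraries) were mouse embryonic fibroblasts taken at E13.5, a mixed culture with no transgene or deletion named in the labels. D7 (3 libraries) and D12 (2 libraries) were taken after 7 and 12 days and are labelled chemically induced neural crest cells, and P1 and P8 (2 libraries each) are labelled chemically induced corneal endothelial cells. The comparison cells were primary corneal endothelial cells from postnatal day 30 (pCEC, 1 library), and the small molecules are not named in the labels used here.

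Dividing cells switch these genes on in waves. Cyclin D with its kinases inactivates the retinoblastoma protein in G1, which frees E2F factors to activate genes of DNA replication, and later the MuvB complex with Mybl2 and Foxm1 activates genes of mitosis. In cells that have stopped dividing, MuvB joins the retinoblastoma relatives p107 and p130 and represses the same genes through a promoter element called the CHR, while E2F7 and E2F8 are repressing members of the E2F family. Fibroblasts in culture divide, whereas corneal endothelial cells of the adult are known for dividing little in the body.

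The 4 promoters below are shown because they carry the elements that these factors are known to bind and belong to genes that fell furthest in their role, or rose, in the first 7 days. Each runs 5′ to 3′ on the gene's strand from 200 bases before to 30 bases after the start, from RefSeq on GRCm38.p6. Capitals mark the CHR (TTTGAA or TTTAAA), the CCAAT box that binds NF-Y, and an E2F site (GCGGGAAA, GCGCGAAA or GCGCCAAA), on either strand. Ccnb2 (chr9:70421525-70421754, minus strand) and Mki67 (chr7:135716350-135716579, minus strand) are mitotic genes, Mcm6 (chr1:128359676-128359905, minus strand) is a helicase gene and E2f8 (chr7:48881567-48881796, minus strand) a repressor gene.
Ccnb2: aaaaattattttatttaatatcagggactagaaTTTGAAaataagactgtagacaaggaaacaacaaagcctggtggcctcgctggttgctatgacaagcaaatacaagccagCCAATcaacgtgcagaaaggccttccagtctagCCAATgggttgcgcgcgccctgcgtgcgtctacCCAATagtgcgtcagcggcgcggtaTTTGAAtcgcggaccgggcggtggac
Mki67: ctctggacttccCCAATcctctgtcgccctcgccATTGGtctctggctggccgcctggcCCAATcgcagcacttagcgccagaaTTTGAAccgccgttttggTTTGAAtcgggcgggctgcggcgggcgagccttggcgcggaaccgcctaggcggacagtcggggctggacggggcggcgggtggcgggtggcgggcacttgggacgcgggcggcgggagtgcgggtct
Mcm6: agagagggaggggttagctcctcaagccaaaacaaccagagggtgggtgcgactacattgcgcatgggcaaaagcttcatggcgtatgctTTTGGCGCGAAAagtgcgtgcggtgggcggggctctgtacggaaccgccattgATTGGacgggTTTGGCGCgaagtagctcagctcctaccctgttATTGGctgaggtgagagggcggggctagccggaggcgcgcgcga
E2f8: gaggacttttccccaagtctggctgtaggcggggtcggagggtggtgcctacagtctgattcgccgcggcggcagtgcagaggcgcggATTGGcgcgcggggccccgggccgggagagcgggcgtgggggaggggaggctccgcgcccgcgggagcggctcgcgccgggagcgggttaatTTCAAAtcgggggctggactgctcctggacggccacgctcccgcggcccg

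Promoters of 38 of the 49 genes were matched by symbol, and Ccnd1, Ccnd2, Ccne2, Foxm1, Mcm4, Gins2, Ccna2, Cdc25c, Aurkb, Kif20a and Tpx2 had no match. In the window from 250 bases before to 50 after the start, the CHR letters stood in 24 of the 38 promoters (63.2%) and in 27.8% of all 27025 promoters in the table. They stood in 17 of the 20 matched mitotic promoters and in 5 of the 13 matched replication and nucleotide promoters. The E2F letters stood in 8 of the 38 (21.1%), with 1 of the 20 mitotic promoters (Cdk1), 6 of the 13 replication and nucleotide promoters, and 1.91% of all promoters. The CCAAT box stood in 28 of the 38 (73.7%) and in 37.9% of all promoters. In the first stretch of capitals of Mcm6, 2 E2F matches overlap each other. Genes with the CHR letters were left at D7 with a median of 18.1% of their D0 level (24 genes) and those without with 41.1% (14 genes), a description in which mitotic genes make up most of the first set. The promoter of E2f8, which rose, holds the letters as well. A match describes these letters and was not tested as a binding site.

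Outside D0, which gene a value belongs to was inferred, because the ID column of the table follows the line order of D0 alone. Genes were placed on the lines of the other groups by the line order and by whether a value gave whole reads. On D0, where the IDs are known, 25281 of 25291 placed genes were right. The gene lengths had been checked on the same D0 values, so this check is not independent of them. A gene for which no line with reads fitted in a group was read as 0 there, which is inferred and not a listed value. On D0, 9 of 27222 genes read as 0 in this way had reads. Of the 49 genes, 48 were placed by line order and whole reads in every group. Mcm2 shared its line in D7 and pCEC with another gene of the same length, and the line was given to Mcm2 because its length was checked on D0. The libraries held from 9997865 to 24030674 reads by the totals recovered from the table, with P1 replicate 2 the shallowest. The labels used here do not say whether replicates are separate cultures or animals, and each p-value therefore measures the spread of these libraries, technical or not. In whole cultures, fewer dividing cells and less RNA per dividing cell cannot be told apart.

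Marker genes matched the labels in part. D0 carried macrophage transcripts as well as those of fibroblasts, with Lyz2 at 907 to 963 FPKM. Lyz2 was at most 0.50 FPKM in D7 and D12, where Cd68, a lysosomal gene, was at 8.02 to 13.7 FPKM. In D7 and D12, the neural crest genes Twist1 and Msx1 were at 880 to 1136 and 27.4 to 44.0 FPKM. Sox10 reached 0.48 FPKM there, and Foxd3 was read as 0 because no line with reads fitted it. P1, P8 replicate 1 and pCEC carried epithelial keratins, with Krt5 at 2360, 2192, 2382 and 676 FPKM, and the corneal endothelial gene Col8a2 was at most 0.30 FPKM in them. The 8 corneal endothelial markers together summed to 837, 715, 1107 and 796 FPKM in these libraries, and to 382 to 399 FPKM in D0. For P1 against D0, limma called 3 of the 8 higher and 1 lower, against 11% and 8.56% of all genes. P8 replicate 2 stood apart from P8 replicate 1: Krt5 was listed at 0, Lyz2 was at 691 FPKM and Col1a1 at 1336 FPKM against 7.09. Results that rest on P8 are therefore given with and without each of its libraries.

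**Figure D1:**
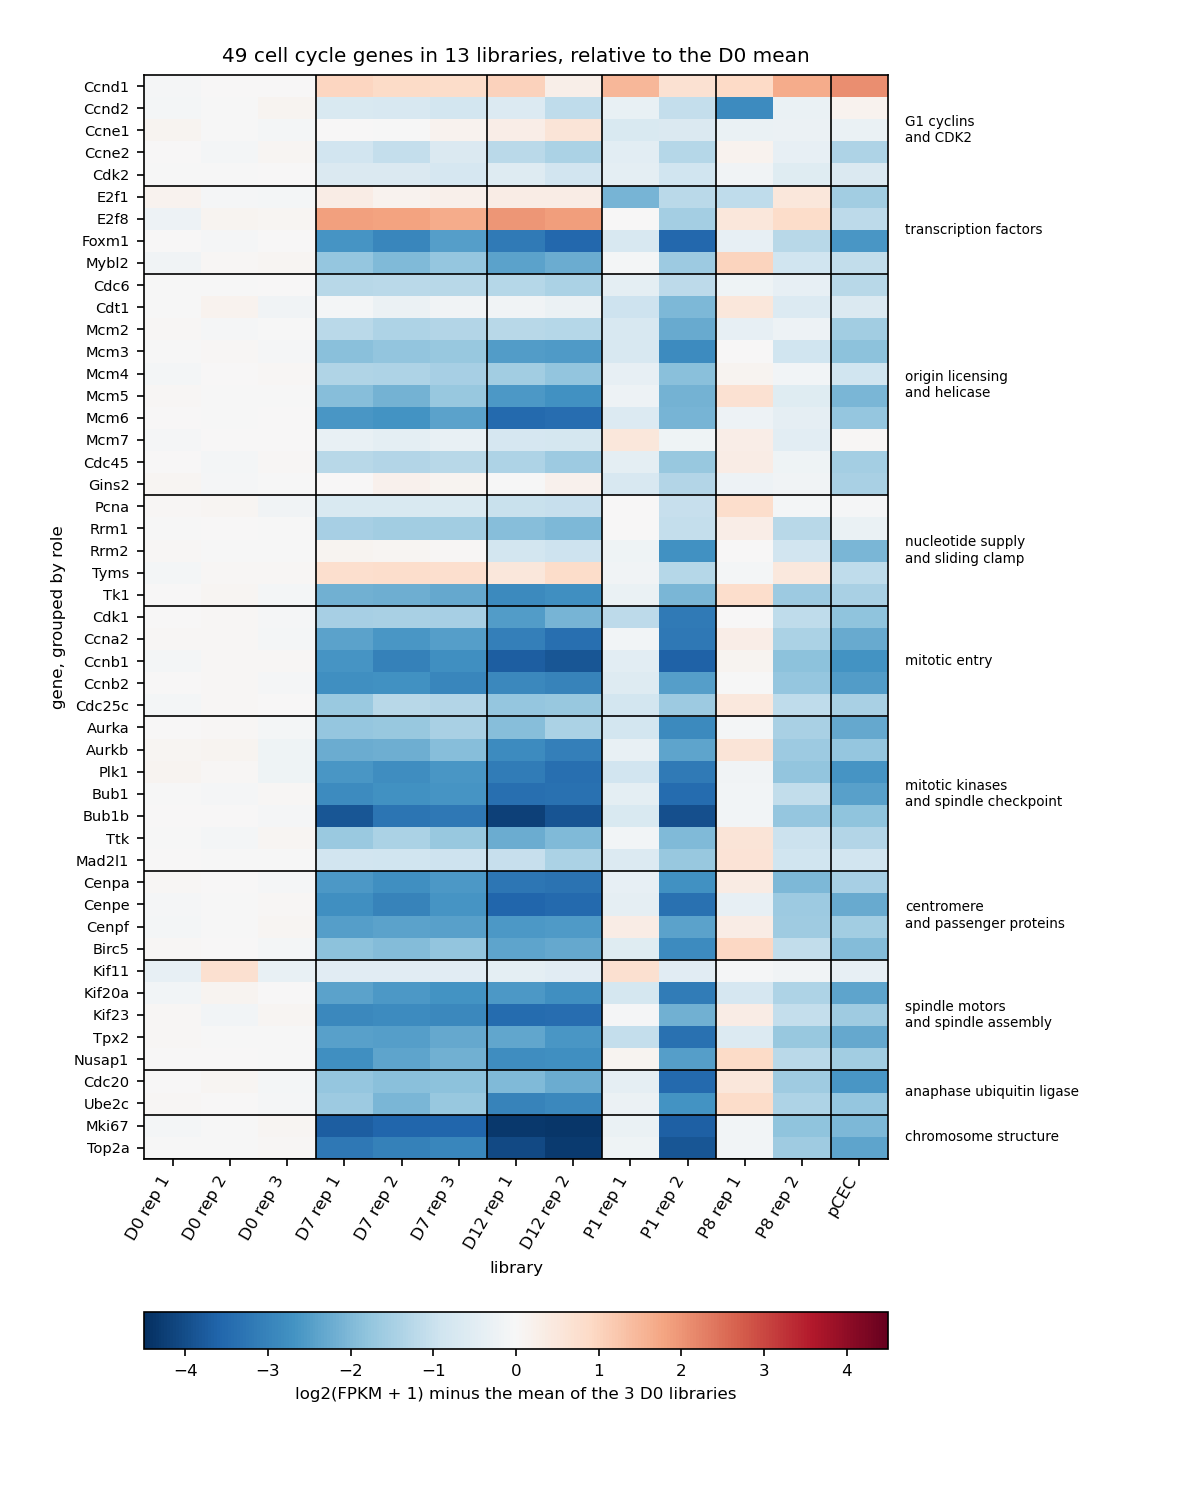
Each row is one of the 49 genes, grouped by role, and each column one of the 13 libraries. Color gives log2(FPKM + 1) minus the mean of the 3 D0 libraries, blue for lower and red for higher. The mitotic rows are blue in D7, D12 and P1 replicate 2, and mostly a lighter blue in P8 replicate 2 and pCEC. They are pale in P1 replicate 1 and P8 replicate 1, and the E2f8 row is red in D7 and D12.

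The first comparison asks what happened to these genes in the first 7 days of conversion. Genes of mitosis and of the replicative helicase fell, and the repressor E2f8 rose. Limma on log2(FPKM + 1), with Benjamini-Hochberg adjustment over the 17199 genes tested, called 32 of the 49 genes lower and 1 higher, at an adjusted p under 0.05 and at least a 2-fold change. Of all genes tested, 11.1% were called lower and 11.3% higher. The fit gave each gene 1 spread shared by all groups. Libraries far apart within P1 or P8 therefore widen the standard errors of every comparison, this one included. The median log2 fold change was -1.79 over the 49 genes and -0.01 over all genes tested. On the linear scale the median gene was left with 19.6% of its D0 level, and 10 genes with under 10%. The groups did not overlap, with every D7 library below every D0 library, for 41 of the 49 genes, against 39.4% of all genes, and for 5 every D7 library was above (37.4%).

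The chromosome structure genes had the lowest median share of D0 among the roles, 7.54%, and both fell. Mki67, which coats mitotic chromosomes and is the usual marker of dividing cells (chr7:135689784-135716361, minus strand, GRCm38), stood at 21.8, 23.0 and 24.6 FPKM in D0 and at 0.85, 1.05 and 1.06 FPKM in D7. All 3 D7 libraries were low and close together, and their values rested on 85, 108 and 102 reads. The log2 fold change was -3.60 ± 0.73 (SE, adjusted p = 0.00436 by limma). Top2a, the topoisomerase that untangles sister chromosomes, stood at 69.2, 69.2 and 73.7 FPKM in D0 and at 6.78, 7.73 and 8.44 FPKM in D7. The D7 level was 10.8% of D0, with a log2 fold change of -3.06 ± 0.77 (SE, adjusted p = 0.012 by limma).

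All 5 genes of mitotic entry fell. Cdk1, the kinase that drives cells into mitosis, stood at 37.4, 38.2 and 35.1 FPKM in D0 and at 12.5, 12.9 and 12.3 FPKM in D7, and it kept the most, 34.0% (log2 fold change -1.48 ± 0.46, adjusted p = 0.0294 by limma). Its partner Ccnb1, cyclin B1, stood at 22.9, 25.6 and 25.7 FPKM in D0 and at 3.10, 2.13 and 2.77 FPKM in D7 (log2 fold change -2.82 ± 0.73, adjusted p = 0.0138 by limma). The kinase and the cyclin thus did not keep the same share of their D0 level, 34.0% against 10.8%, which was not tested as a difference. Cyclin B2 (Ccnb2), cyclin A2 (Ccna2) and the phosphatase Cdc25c, which activates Cdk1, were left with 9.27%, 13.04% and 16.4% of D0, and all 3 fell. Pseudogene copies of Ccnb1 and Ccnb2 are annotated, and reads that such copies share cannot be told apart here.

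Of the 7 mitotic kinases and spindle checkpoint genes, 6 fell. Bub1b, which delays anaphase until chromosomes are attached, stood at 27.5, 28.1 and 26.7 FPKM in D0 and at 0.97, 1.92 and 2.04 FPKM in D7 (log2 fold change -3.45 ± 0.73, adjusted p = 0.00521 by limma). Its relative Bub1, the Polo kinase Plk1, the checkpoint kinase Ttk and the Aurora kinases Aurkb and Aurka were left with 9.62%, 12.4%, 18.1%, 19.0% and 28.4% of D0. Mad2l1, a checkpoint protein that inhibits the anaphase ligase, ranged from 8.70 to 8.92 FPKM in D0 and from 4.15 to 4.44 FPKM in D7, without a call (limma, adjusted p = 0.0939). The groups did not overlap for any of the 7.

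Centromere and spindle genes followed. The kinetochore proteins Cenpf and Cenpe, the centromeric histone Cenpa and survivin (Birc5), a passenger protein that works with Aurkb, all fell, to 7.84%, 9.95%, 12.72% and 19.5% of D0. The motors Kif23 and Kif20a, which act in cytokinesis, and the spindle factors Nusap1 and Tpx2 fell to 8.74%, 8.86%, 9.26% and 16.2%. The motor Kif11 was listed at 0.11, 1.33 and 0.12 FPKM in D0 and at 0.00 to 0.01 FPKM in D7, and it is not read further because its level was near 0 in most libraries. Cdc20, which activates the anaphase ligase, was at 38.8 to 43.8 FPKM in D0 and 10.6 to 11.8 FPKM in D7. Ube2c, the ubiquitin enzyme of that ligase, was at 19.0 to 20.8 and 4.03 to 5.80 FPKM. Neither was called (adjusted p = 0.0722 for Cdc20 and 0.0525 for Ube2c by limma), although the groups did not overlap.

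Of the 10 licensing and helicase genes, 7 fell. Mcm6, a subunit of the ring-shaped MCM helicase, stood at 35.1, 34.6 and 34.9 FPKM in D0 and at 4.79, 4.58 and 5.74 FPKM in D7. The fall to 14.4% was the furthest in this role (log2 fold change -2.58 ± 0.31, adjusted p = 0.000251 by limma). Mcm2 stood at 41.4, 38.5 and 39.8 FPKM in D0 and at 16.6, 14.7 and 15.6 FPKM in D7 (log2 fold change -1.30 ± 0.31, adjusted p = 0.00922 by limma), with the limit on its line given above. The subunits of this ring kept unequal shares of their D0 level: 14.4% for Mcm6, 21.5% for Mcm5, 26.2% for Mcm3, 36.1% for Mcm4, 39.2% for Mcm2 and 76.6% for Mcm7, which was not called. Cdc6, which loads the ring on DNA, and Cdc45, which activates it, fell to 19.6% and 31.2%. The loading factor Cdt1 stood at 14.8, 16.6 and 13.1 FPKM in D0 and at 13.8, 12.2 and 13.01 FPKM in D7, so that the groups overlapped. Gins2, a part of the active helicase, was at 5.20 to 5.83 and 5.56 to 6.37 FPKM, but 67.3% of its exonic bases are shared with Gse1 on the opposite strand. Reads of overlapping genes cannot be told apart where the strand of counting is not given.

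Nucleotide supply was mixed. The large ribonucleotide reductase subunit Rrm1 stood at 79.6, 82.3 and 79.6 FPKM in D0 and at 27.7, 26.9 and 26.8 FPKM in D7 and fell, while the small subunit Rrm2 was at 49.97 to 52.6 and 52.6 to 56.0 FPKM (log2 fold change 0.09 ± 0.52, adjusted p = 0.94 by limma). The kinase Tk1, which salvages thymidine, fell from 21.3 to 24.3 FPKM in D0 to 3.87 to 4.37 FPKM in D7. Thymidylate synthase (Tyms), which makes thymidylate from scratch, stood at 9.93, 11.01 and 10.9 FPKM in D0 and at 18.6, 19.0 and 18.6 FPKM in D7. Every D7 library of Tyms was above every D0 library, and the difference passed the adjusted p but not the 2-fold limit (log2 fold change 0.77 ± 0.27, adjusted p = 0.0473 by limma). The sliding clamp Pcna was at 65.9, 75.0 and 77.8 FPKM in D0 and at 44.3 to 45.3 FPKM in D7, again without a call (log2 fold change -0.69 ± 0.28, adjusted p = 0.0767 by limma). Pseudogene copies of Pcna and Tyms are annotated.

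The transcription factors split. Foxm1, the activator of mitotic genes, stood at 23.3, 22.4 and 23.6 FPKM in D0 and at 2.82, 2.15 and 3.36 FPKM in D7 (log2 fold change -2.69 ± 0.59, adjusted p = 0.00646 by limma), and Mybl2 fell to 16.8% of D0. E2f1, an activator of replication genes, stood at 12.5, 10.9 and 10.5 FPKM in D0 and at 14.5, 12.6 and 13.4 FPKM in D7 (log2 fold change 0.24 ± 0.38, adjusted p = 0.672 by limma). The repressor E2f8 stood at 2.64, 3.59 and 3.53 FPKM in D0 and at 14.4, 13.8 and 12.6 FPKM in D7. It was the 1 gene called higher, at 418% of D0, with a log2 fold change of 1.79 ± 0.34 (SE, adjusted p = 0.00299 by limma). Of its exonic bases, 11.2% are shared with the transcript Gm2788 on the opposite strand.

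No G1 cyclin was called by limma. Cyclin D1 (Ccnd1), which couples growth signals to the cell cycle, stood at 51.6, 54.5 and 54.9 FPKM in D0 and at 107, 98.8 and 95.03 FPKM in D7, with every D7 library above every D0 library. Its difference passed the adjusted p but not the 2-fold limit on the log2(FPKM + 1) scale (log2 fold change 0.89 ± 0.28, adjusted p = 0.0288 by limma). Cyclin D2 (Ccnd2) had the highest FPKM of the 49 genes by the mean of every group. It was at 444 to 516 FPKM in D0 and 267 to 294 FPKM in D7 (log2 fold change -0.75 ± 0.52, adjusted p = 0.289 by limma). Cyclin E1 (Ccne1) was at 34.0 to 38.9 and 35.4 to 40.7 FPKM (log2 fold change 0.05 ± 0.11, adjusted p = 0.756 by limma), while cyclin E2 (Ccne2) was at 46.3% and Cdk2 at 60.3% of D0. LTO1 on the opposite strand shares 23.4% of the exonic bases of Ccnd1, and Ints8 17.4% of those of Ccne2.

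**Figure D2:**
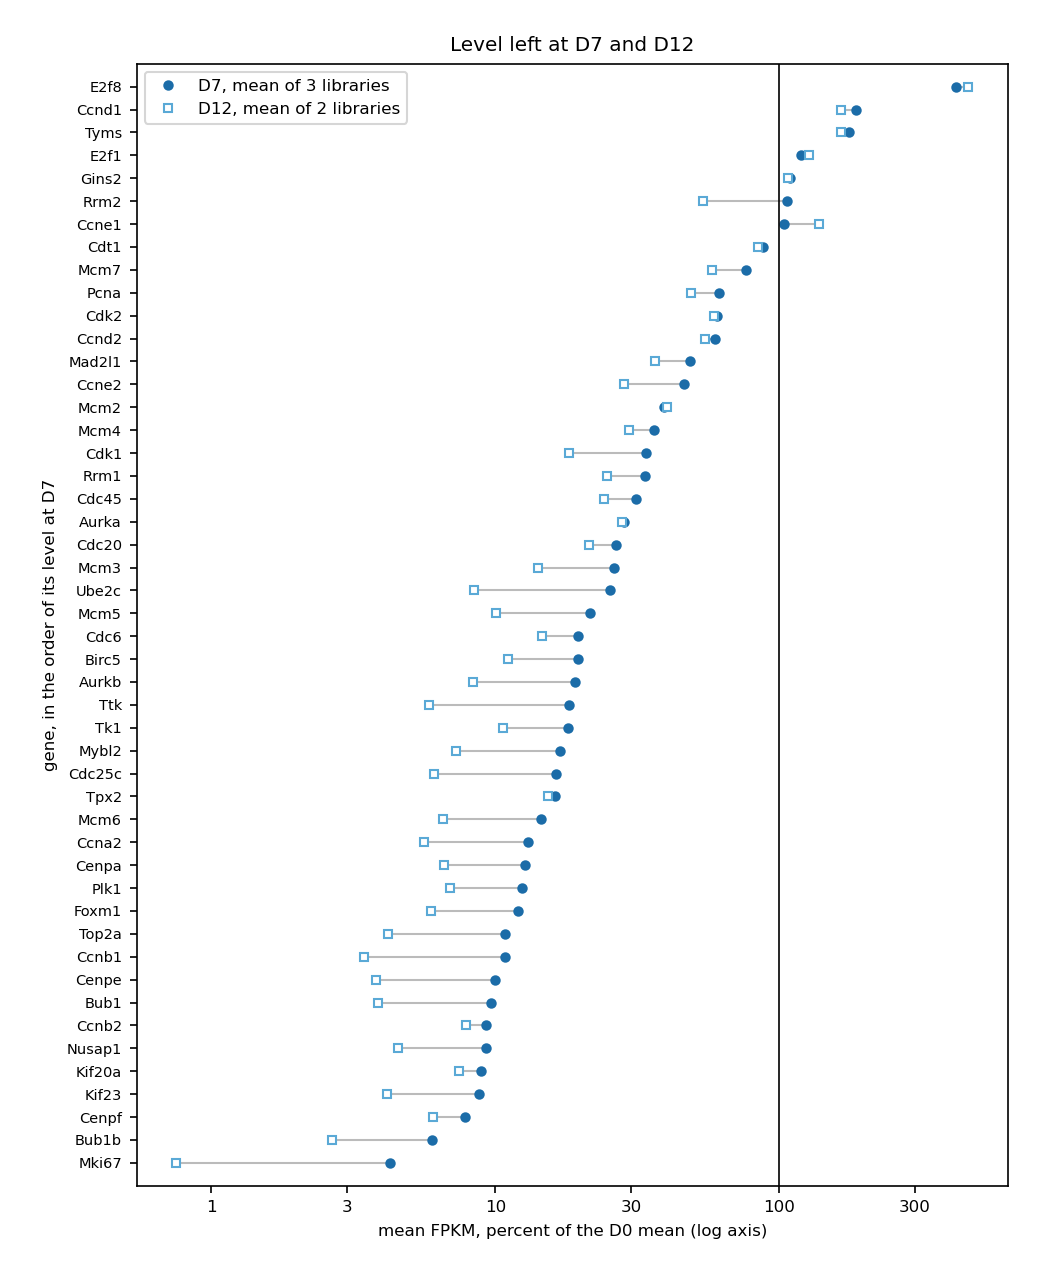
Mean FPKM at D7 (filled circles, 3 libraries) and at D12 (open squares, 2 libraries) as a percent of the D0 mean, on a log axis, for 48 genes in the order of their D7 level. Kif11 is left out because its level was near 0. At D7 Mki67 is lowest at 4.26% and E2f8 highest at 418%, and the lines between the symbols point mostly to lower levels at D12.

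At D12 more of the genes stood far below D0. Limma called 36 of the 49 lower than in D0 and 1 higher, against 11.9% and 11.4% of all genes tested, with a median log2 fold change of -2.31 over the 49 genes and -0.03 over all genes. D7 and D12 were compared with the same D0 libraries. The median gene was left with 11.1% of its D0 level, and 22 genes with under 10%. Both D12 libraries were below every D0 library for 43 genes and above for 5, against 40.3% and 36.9% of all genes. Mki67 stood at 0.18 and 0.17 FPKM, resting on 16 and 14 reads (log2 fold change -4.36 ± 0.82, adjusted p = 0.00332 by limma). Top2a stood at 3.26 and 2.64 FPKM (-4.18 ± 0.86, adjusted p = 0.00513) and Bub1b at 0.54 and 0.92 FPKM (-4.05 ± 0.82, adjusted p = 0.00462). Ccnb1 stood at 0.95 and 0.76 FPKM (-3.79 ± 0.82, adjusted p = 0.00646), Foxm1 at 1.68 and 1.07 FPKM (-3.35 ± 0.66, adjusted p = 0.00422) and Cdk1 at 5.60 and 7.85 FPKM (-2.31 ± 0.52, adjusted p = 0.00762). With either D12 library left out, limma called fewer of the 49 genes, and fewer of all genes as well.

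Among the replication genes, Mcm6 stood at 2.20 and 2.37 FPKM in D12, Mcm2 at 16.1 and 16.0 FPKM (log2 fold change against D0 -1.26 ± 0.35, adjusted p = 0.0188 by limma) and Pcna at 35.7 and 35.3 FPKM (-1.02 ± 0.31, adjusted p = 0.0293 by limma). Rrm2, level at D7, stood at 28.5 and 26.5 FPKM at D12 against 52.6 to 56.0 FPKM at D7. E2f8 stayed high at 15.7 and 14.4 FPKM (log2 fold change against D0 1.92 ± 0.38, adjusted p = 0.00405 by limma). E2f1 was at 14.4 FPKM in both libraries (0.33 ± 0.43, adjusted p = 0.602), Ccnd1 at 112 and 64.1 FPKM (0.65 ± 0.31, adjusted p = 0.13) and Ccnd2 at 308 and 216 FPKM (-0.88 ± 0.59, adjusted p = 0.272). Gins2 and Cdt1 differed least from D0, with log2 fold changes of 0.09 ± 0.20 and -0.22 ± 0.36.

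Set directly against D7, limma called 0 of the 49 genes at D12, where it called 0.0756% of all genes lower and 0.0988% higher. At an unadjusted p under 0.05 it gave 2 genes, 1 in each direction, against 2.44% of all genes lower and 2.11% higher, and voom on the recovered reads called 0. The fold changes for this step were -0.76 ± 0.82 for Mki67, -1.13 ± 0.86 for Top2a, -0.83 ± 0.52 for Cdk1, -0.98 ± 0.82 for Ccnb1 and -0.67 ± 0.66 for Foxm1 (log2, SE, adjusted p = 1 for each by limma). For Mcm2, Pcna, Ccnd1, Ccnd2 and E2f1 they were 0.04 ± 0.35, -0.33 ± 0.31, -0.24 ± 0.31, -0.13 ± 0.59 and 0.08 ± 0.43, again with an adjusted p of 1, and Gins2 and Aurka were nearest to 0 at -0.02 ± 0.20 and -0.04 ± 0.56. Both D12 libraries were below all 3 D7 libraries for 33 of the 49 genes, against 21% of all genes, and above them for 2, against 17.3%.

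**Figure D3:**
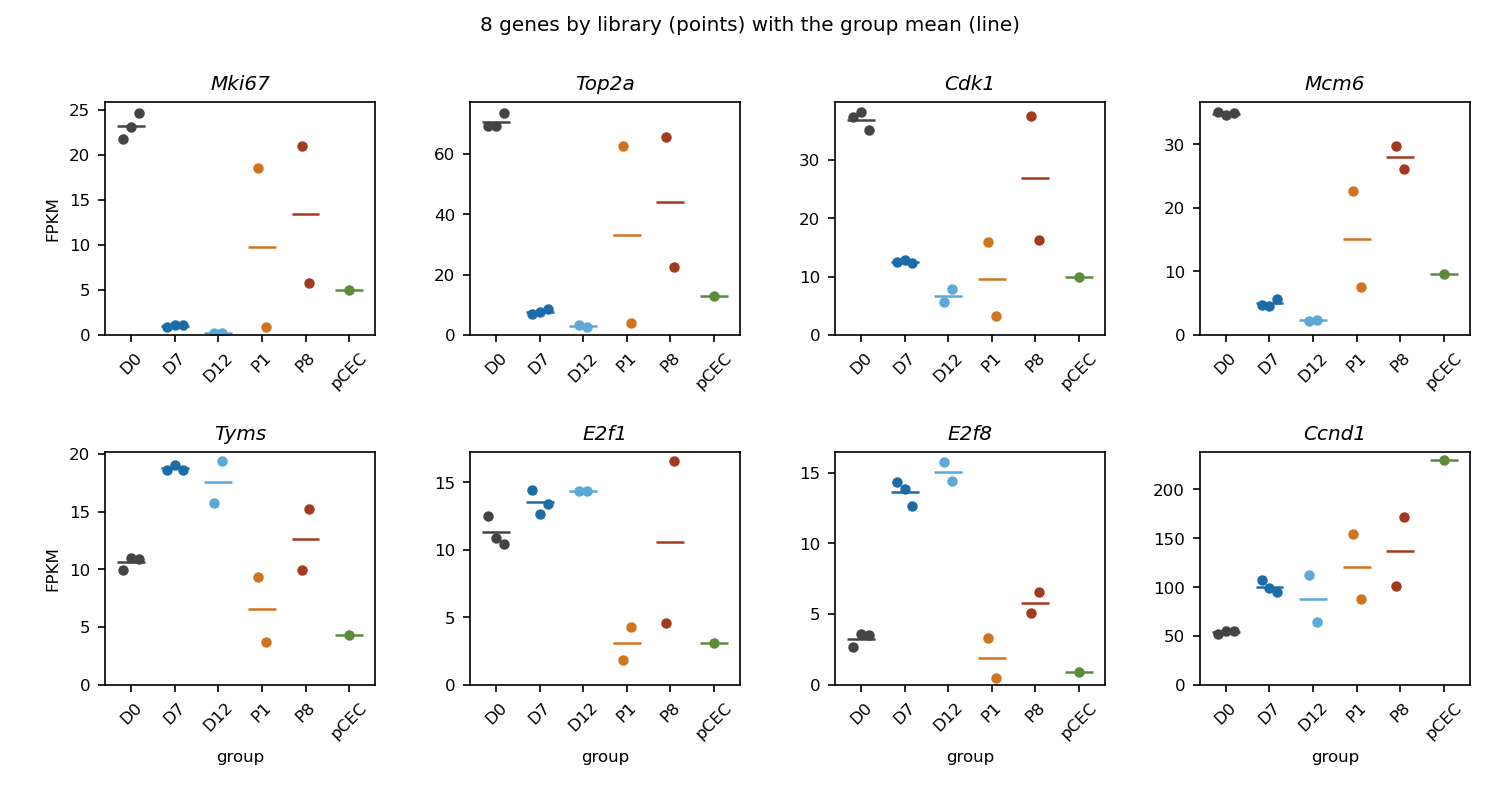
FPKM of 8 genes in each of the 13 libraries, with points for libraries and a line for the group mean, on linear axes that start at 0. Mki67, Top2a, Cdk1 and Mcm6 are low in D7 and D12, where Tyms, E2f1, E2f8 and Ccnd1 are at or above D0, and the 2 points of P1 lie far apart for the first 4.

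Other cell cycle genes, taken from lists chosen with earlier results of these data known, were tested between D0 and D7 as well. Of 48 other mitosis genes tested, limma called 34 lower and 0 higher at D7, against 11.1% and 11.3% of all genes. Ncapd2, a condensin subunit, Kif2c, a kinetochore motor, and Prc1, which bundles spindle fibers, were the furthest at log2 fold changes of -3.03 ± 0.60, -2.94 ± 0.48 and -2.65 ± 0.57. At D12, 38 of these 48 were called lower, against 11.9% of all genes. Of 34 other replication genes tested, 13 were called lower and 1 higher at D7, beside the same 11.1% and 11.3% of all genes. The higher one was Dut, which destroys dUTP and yields the substrate of thymidylate synthase, at 18.9 to 21.8 FPKM in D0 and 114 to 116 FPKM in D7 (log2 fold change 2.44 ± 0.14, adjusted p = 3.36e-06 by limma). The checkpoint partner Clspn (-2.36 ± 0.46) and the methylation factor Uhrf1 (-1.99 ± 0.53) were the furthest lower. Of 16 checkpoint and repair genes, 14 were called lower, led by Rad51ap1, Brca2 and Fanca, and of 10 chromatin genes tied to replication, 5 were lower and 1 higher, led by Hmgn2, Hmgb2 and Lmnb1.

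Inhibitors of the cycle did not move as one. Of 19 repressors and cyclin-dependent kinase inhibitors, limma called 2 higher and 6 lower at D7, against 11.3% and 11.1% of all genes tested. Their median log2 fold change was -0.04. The p21 gene Cdkn1a stood at 409 to 443 FPKM in D0 and at 1022, 1058 and 1078 FPKM in D7, and the retinoblastoma gene Rb1 at 17.3 to 17.9 and 41.2 to 41.5 FPKM, and both were called higher. The p27 gene Cdkn1b (log2 fold change -2.40 ± 0.48) and the repressor E2f7 (-2.06 ± 0.30), the closest relative of E2f8, were called lower. E2f7 stood at 4.85 to 5.13 FPKM in D0 and at 0.36 to 0.51 FPKM in D7, opposite in direction to E2f8. Cdkn2a, the gene of p16 and p19Arf, stood at 43.7 to 49.6 FPKM in D0 and at 343 to 351 FPKM in D7. This difference was without a call (2.87 ± 1.27, limma adjusted p = 0.102), although the groups did not overlap. Its standard error pools the spread within all groups, and its libraries lay far apart within P1 and within P8. Of 14 genes tested from a list of other cyclins, kinases and further regulators, 1 was called higher and 1 lower, beside the same 11.3% and 11.1% of all genes. The higher one was E2f5, a transcription factor of the E2F family, and the lower one Ccng2. The phosphatase Cdc25b had the largest difference without a call (-1.67 ± 0.69). The summed level of 10 macrophage markers was 1161 to 1232 FPKM in D0 and 11.01 to 15.1 FPKM in D7, with all 10 called lower. That of 7 fibroblast markers was 22150 to 23067 and 3310 to 3327 FPKM, with 2 called lower. The part of these cells and transcripts in the falls given above was not tested.

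The next comparison asks whether the genes came back in the induced corneal cells. The P1 libraries differed from each other. In P1 replicate 1 the mitotic genes summed to 361 FPKM, below the 493 to 507 FPKM of D0. In P1 replicate 2 they summed to 38.9 FPKM, near the 46.5 and 47.9 FPKM of D12. Mki67 was at 18.6 FPKM in replicate 1 and 0.90 FPKM in replicate 2, Top2a at 62.4 and 3.95 FPKM, Ccnb1 at 17.5 and 1.06 FPKM and Foxm1 at 13.8 and 1.07 FPKM. Cdk1 was at 15.9 and 3.19 FPKM, Mcm2 at 23.8 and 7.58 FPKM and Pcna at 73.6 and 35.1 FPKM. Replicate 2 was at least 2-fold lower than replicate 1 on the log2(FPKM + 1) scale for 39 of the 49 genes and higher by that much for 0, against 9.41% and 9.09% of all genes, with no test for 2 single libraries. The median difference was -1.88 over the 49 genes and -0.09 over all genes tested. Against the D0 mean, replicate 1 was 2-fold lower for 3 genes and higher for 1 (10.9% and 15.4% of all genes), and replicate 2 lower for 44 and higher for 0 on the same scale (14.6% and 17.2%). Against the D12 mean, replicate 1 was 2-fold higher for 33 genes and lower for 3 (23.4% and 16.7%), and replicate 2 higher for 2 and lower for 9 (18.6% and 15.8%).

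On the log2(FPKM + 1) scale, the 10 genes within 2-fold between the P1 libraries were the 5 of the G1 cyclins and Cdk2, with E2f1, Cdc6, Mcm7, Gins2 and Cdc25c. In FPKM with nothing added, replicate 1 was 4.69-fold higher than replicate 2 for Cdc25c, 2.99-fold for Cdc6 and 2.19-fold for Ccne2, all at low levels. Ccne1 was at 22.1 and 22.6 FPKM and Cdk2 at 13.2 and 9.21 FPKM in replicates 1 and 2. E2f1 was higher in replicate 2, at 4.26 against 1.86 FPKM. Replicate 2 held 9997865 reads and replicate 1 held 22587267, so that Mki67 rested on 48 and 2231 reads. The summed epithelial markers were at 7242 FPKM in replicate 1 and 8732 FPKM in replicate 2, fibroblast markers at 472 and 1094 FPKM, and macrophage markers at 277 and 337 FPKM. Of the macrophage sum, Cd14 made up 256 and 311 FPKM, while C1qb, C1qc and Fcgr1 were read as 0 in both and Lyz2 was at 0 and 1.37 FPKM. Cdkn2a was at 146 and 340 FPKM and Cdkn2b, its neighbor that encodes p15, at 63.9 and 223 FPKM. The part of these differences in the split was not tested.

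Against D12, limma called 3 of the 49 genes higher in P1 and 6 lower, against 14.9% and 12.6% of all genes tested. The 3 were Kif23 (0.74 and 0.75 FPKM in D12, 17.1 and 3.23 FPKM in P1, log2 fold change 2.33 ± 0.62, adjusted p = 0.0158 by limma), Mcm6 (2.11 ± 0.38, adjusted p = 0.00259) and Rrm1 (1.43 ± 0.45, adjusted p = 0.0326). The 6 lower were among the 7 genes that stood at 80% or more of D0 at D12 (Ccnd1 being the seventh): E2f8 (-2.69 ± 0.41, adjusted p = 0.00121), E2f1 (-1.99 ± 0.47, adjusted p = 0.00947), Tyms (-1.40 ± 0.33, adjusted p = 0.00955), Cdt1, Ccne1 and Gins2. E2f8 stood at 3.27 and 0.45 FPKM in P1 and Tyms at 9.35 and 3.73 FPKM, so that both libraries of each were below both of D12. Mki67 (2.38 ± 0.90, adjusted p = 0.0611), Top2a (2.17 ± 0.95, adjusted p = 0.095), Ccnb1 (1.74 ± 0.90, adjusted p = 0.149), Foxm1 (1.23 ± 0.73, adjusted p = 0.2) and Cdk1 (0.14 ± 0.57, adjusted p = 0.875) were not called. Nor were Pcna (0.51 ± 0.34, adjusted p = 0.255), Ccnd1 (0.45 ± 0.34, adjusted p = 0.313), Ccnd2 (0.18 ± 0.64, adjusted p = 0.852), Mcm2 (-0.22 ± 0.38, adjusted p = 0.662), Cdk2 (0.06 ± 0.20) or Mad2l1 (0.07 ± 0.47), the last pair being nearest to 0. With P1 replicate 1 alone the median log2 difference from D12 was 1.78 over the 49 genes and 0.13 over all genes. With P1 replicate 2 alone it was 0.02 and 0. With either D12 library left out, limma called fewer of the 49 and fewer of all genes. Without both P8 libraries it called 10 of the 49 higher and 6 lower, against 3029 and 2596 of all genes. Both P1 libraries were below both D12 libraries for 6 genes and above them for 19, against 32.4% and 37.5% of all genes.

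**Figure D4:**
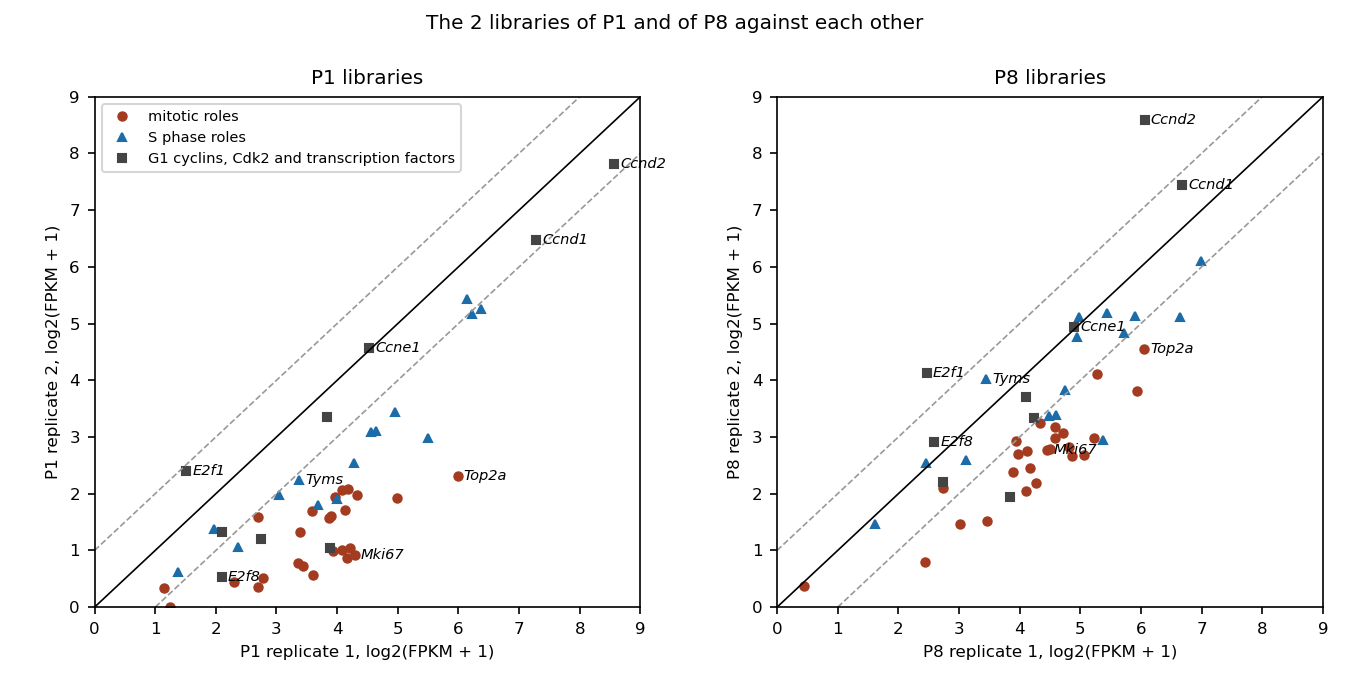
Each point is one of the 49 genes, at log2(FPKM + 1) in replicate 1 (horizontal) and replicate 2 (vertical) of P1 (left) and P8 (right), with shape and color for its roles. The solid line marks equal levels and the dashed lines a 2-fold difference. Mitotic genes lie below the lower dashed line in both panels for the most part, whereas Ccne1 lies on the solid line and E2f1 above it.

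Set against D0, P1 was lower for 14 genes and higher for 1 by limma (8.56% and 11% of all genes). Called lower were 7 licensing and helicase genes, E2f1, Foxm1, Cdk1, Aurka, Plk1, Kif20a and Tpx2. The furthest were Tpx2 (-2.21 ± 0.56, adjusted p = 0.0185), Cdk1 (-2.17 ± 0.52, adjusted p = 0.0144) and Foxm1 (-2.12 ± 0.66, adjusted p = 0.0405). Mcm2 (-1.49 ± 0.35, adjusted p = 0.0133) and E2f1 (-1.66 ± 0.43, adjusted p = 0.0193) were also lower. Ccnd1 was the gene called higher, at 154 and 87.3 FPKM (log2 fold change 1.10 ± 0.31, adjusted p = 0.0271 by limma). Mki67 (-1.98 ± 0.82, adjusted p = 0.1), Top2a (-2.02 ± 0.86, adjusted p = 0.11), Ccnb1 (-2.06 ± 0.82, adjusted p = 0.0899), Pcna (-0.51 ± 0.31, adjusted p = 0.245) and Ccnd2 (-0.71 ± 0.59, adjusted p = 0.389) were not called, and Kif11 and Mcm7 differed least (0.11 ± 0.39 and 0.17 ± 0.24). The result rested on which P1 library was kept. The median log2 difference from D0 was -0.42 with replicate 1 alone and -2.17 with replicate 2 alone, against 0.08 and -0.03 over all genes. In the reported fit 15 of the 49 and 3360 of all genes were called. It was 3 or 4 of the 49 when a D0 library was left out (2311 to 2397 of all genes) and 10 when a D7 library was (2924 to 2935). Without both P8 libraries it was 25 of the 49 and 4287 of all genes. Both P1 libraries were below every D0 library for 39 genes and above for 1, against 28.7% and 31.7% of all genes.

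The P8 libraries differed as well, and in these 49 genes replicate 1 was nearer to D0 than replicate 2. Over all genes tested it was replicate 2 that stood nearer. Its Spearman correlations with the D0 libraries were 0.924 to 0.925, and those of replicate 1 were 0.746 to 0.754. P8 replicate 1 held Mki67 at 20.97 FPKM, Top2a at 65.4 FPKM, Ccnb1 at 27.2 FPKM and Cdk1 at 37.5 FPKM, and 40 of the 49 genes reached at least 80% of the D0 mean. P8 replicate 2 held Mki67 at 5.81 FPKM, Top2a at 22.5 FPKM, Ccnb1 at 6.08 FPKM and Cdk1 at 16.3 FPKM, and 11 genes reached that share. Replicate 1 was 2-fold below the D0 mean for 2 genes and above it for 0 (15.6% and 15.2% of all genes), and replicate 2 below for 25 and above for 1 (6.84% and 6.93%). Replicate 2 was at least 2-fold lower than replicate 1 for 27 genes and higher for 2, against 16.8% and 16.3% of all genes, with no test for single libraries. The 2 were Ccnd2, at 65.8 FPKM in replicate 1 and 384 FPKM in replicate 2, and E2f1, at 4.54 and 16.6 FPKM. The MCM genes were unequal: Mcm2 was at 30.7 and 33.8 FPKM, Mcm4 at 42.6 and 35.3 FPKM and Mcm6 at 29.8 and 26.2 FPKM. Replicate 1 was higher than replicate 2 by 1.73-fold for Mcm7, 1.96-fold for Mcm3 and 2.48-fold for Mcm5, beside 2.30-fold for Cdk1 and 3.61-fold for Mki67. These are the libraries that differ in Krt5, Lyz2 and Col1a1 as given above, and Cdkn2a was at 0.55 FPKM in replicate 1 and 137 FPKM in replicate 2. The part of those differences was not tested.

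By limma, 0 of the 49 genes differed between P8 and P1, where 1.22% of all genes were called, 0.285% higher and 0.93% lower. At an unadjusted p under 0.05, 15 genes were higher and 0 lower, against 4.9% and 10.8% of all genes, and voom on the recovered reads called 0. The log2 fold changes were 1.62 ± 0.57 for Cdk1 (adjusted p = 0.214), 1.35 ± 0.47 for E2f1 (0.211 for the adjusted p), 1.32 ± 0.73 for Foxm1 (adjusted p = 0.384), 1.19 ± 0.90 for Ccnb1 (adjusted p = 0.517), 1.18 ± 0.38 for Mcm2 (adjusted p = 0.18), 1.16 ± 0.95 for Top2a (adjusted p = 0.549), 1.00 ± 0.90 for Mki67 (adjusted p = 0.588), 0.85 ± 0.34 for Pcna (adjusted p = 0.275) and -0.87 ± 0.64 for Ccnd2 (adjusted p = 0.511). Rrm1 and Ccnd1 were nearest to 0 at 0.07 ± 0.45 and 0.19 ± 0.34. Without P1 replicate 1 the log2 fold changes of Mki67 and Top2a were 2.68 and 3.00, and limma called more of the 49 and more of all genes. Without P1 replicate 2 the differences of Mki67 and Top2a turned to -0.68 for each, and those of Ccnb1 and Foxm1 to -0.39 and -0.10, none of the 4 called. With either P8 library left out, limma also called more of the 49 and more of all genes than with both kept.

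Against D0, limma called 1 of the 49 genes higher in P8 and 0 lower, against 3.1% and 4.81% of all genes (7.91% in either direction), and 3 genes passed an unadjusted p under 0.05, 1 higher and 2 lower, against 12.7% and 15.8% of all genes. The called gene was Ccnd1, at 101 and 172 FPKM (log2 fold change 1.28 ± 0.31, adjusted p = 0.0268), and it was higher than every D0 library in both. Mki67 (-0.98 ± 0.82, adjusted p = 0.464), Top2a (-0.86 ± 0.86, adjusted p = 0.549), Ccnb1 (-0.86 ± 0.82, adjusted p = 0.523), Foxm1 (-0.80 ± 0.66, adjusted p = 0.459), Cdk1 (-0.55 ± 0.52, adjusted p = 0.515), E2f1 (-0.31 ± 0.43, adjusted p = 0.673) and Mcm2 (-0.30 ± 0.35, adjusted p = 0.608) were not called. Neither were Ccnd2 (-1.57 ± 0.59, adjusted p = 0.118) and Pcna (0.35 ± 0.31, adjusted p = 0.498), and Mcm4 and Cdt1 were nearest to 0. With a standard error of 0.82 on the log2 scale, a 2-fold difference in Mki67 was not detectable here. Without P8 replicate 2 limma called 2 genes, both lower, without P8 replicate 1 or either P1 library it called 3, and without any 1 of the D0 libraries or D7 replicate 2 it called 0.

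The primary corneal endothelial cells had 1 library, so their values have no error. Mki67 stood at 5.01 FPKM, Top2a at 12.9 FPKM, Cdk1 at 9.87 FPKM, Ccnb1 at 2.94 FPKM and Foxm1 at 2.91 FPKM. These lie between the values of the P1 libraries for each of the 5. Mcm2 stood at 12.9 FPKM, with the limit on its line given above, and Pcna at 69.5 FPKM. On the log2(FPKM + 1) scale, 38 of the 49 genes were at least 2-fold below the D0 mean and 1 above it, against 14.8% and 18% of all genes, with a median log2 difference of -1.58 over the 49 genes and 0.06 over all genes. Against the mean of P1 on that scale, 0 of the 49 lay 2-fold off in either direction, against 7.31% of all genes lower and 5.82% higher, but the P1 libraries lie far apart. Against the mean FPKM of P1, with nothing added, 18 of the 49 were at least 2-fold lower, among them Top2a (12.9 against 33.2 FPKM) and Ccnb1 (2.94 against 9.28 FPKM). The gene above D0 was Ccnd1, whose 230 FPKM was its highest level in the 13 libraries, and Ccnd2 stood at 529 FPKM, also its highest. E2f1 was at 3.11 FPKM and E2f8 at 0.88 FPKM. The genes within 2-fold of D0 on the log2(FPKM + 1) scale were Ccnd2, Ccne1, Cdk2, Cdt1, Mcm4, Mcm7, Pcna, Rrm1 and Mad2l1, leaving out Kif11, whose level is near 0.

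Summing FPKM over the 25 mitotic genes and over the 15 genes of licensing, helicase and nucleotide supply sets the libraries in an order. The mitotic sum was 559 FPKM in P8 replicate 1, 493 to 507 FPKM in D0, 361 FPKM in P1 replicate 1, 159 FPKM in P8 replicate 2, 102 FPKM in pCEC, 76.7 to 83.7 FPKM in D7, 46.5 and 47.9 FPKM in D12 and 38.9 FPKM in P1 replicate 2. The replication sum had a smaller range, from 574 FPKM in P8 replicate 1 to 166 FPKM in P1 replicate 2. The ratio of mitotic to replication sums was 1.06 to 1.08 in D0, 0.97 in P8 replicate 1, 0.87 in P1 replicate 1, 0.49 in P8 replicate 2, 0.37 in pCEC, 0.31 to 0.33 in D7, 0.253 and 0.256 in D12 and 0.23 in P1 replicate 2. These ratios describe the 13 libraries, with no test, and their size depends on the gene lengths used for FPKM.

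**Figure D5:**
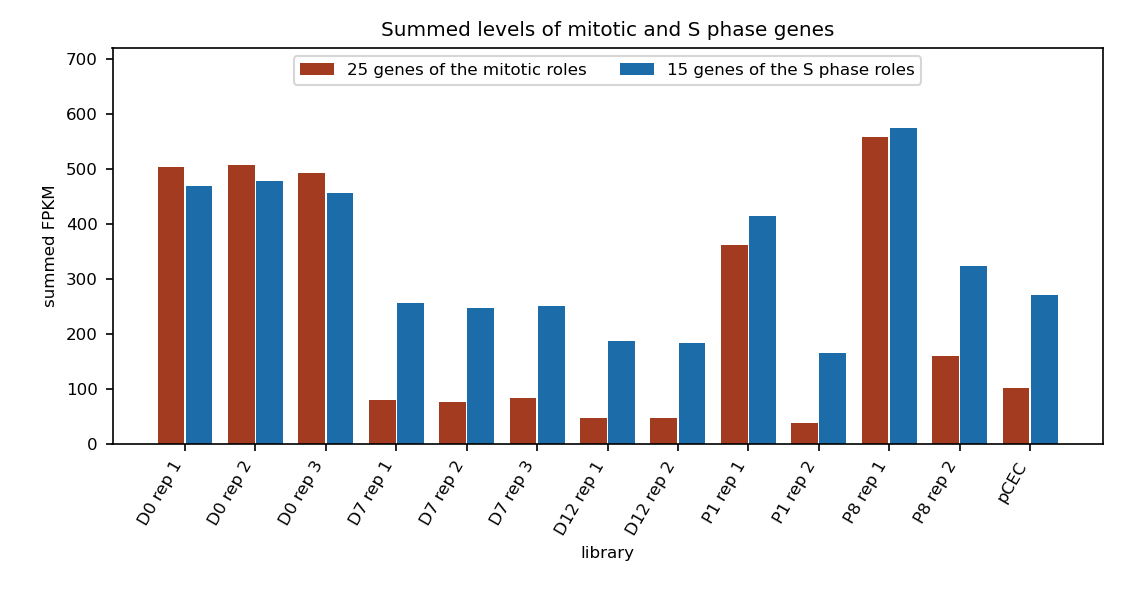
Summed FPKM per library, for the 25 genes of the mitotic roles (red bars) and the 15 genes of licensing, helicase and nucleotide supply (blue bars), on a linear axis from 0. The red bar is above the blue one in the 3 D0 libraries and falls to 38.9 FPKM in P1 replicate 2, where the blue bar is at 166 FPKM.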

How the data were processed

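Per the labels' protocols, Trizol was used for RNA and an Illumina TruSeq kit for the libraries. The submitters' processing notes name Bowtie 0.12.2, mm8 and mm10 without their roles. The authors deposited FPKM values for 54603 lines and 13 columns. The table's IDs follow D0 alone, so genes of other groups were placed by hash order (131072 slots) and by whole reads within 0.001, using mean transcript lengths of GENCODE M21 (GRCm38). For 1113 genes, Cdc25c, Kif11 and Kif20a among them, the length was set on D0 instead. On D0, whose values had also served to check the lengths, 99.96% of placed genes were right, and 5860 genes could not be placed. With the lengths of 10846 genes left unchecked, 93.2% of the 2674 of them at 1 FPKM or more were right on D0. Of those 2674, 178 were unresolved, 5 were wrongly read as 0 and 0 were put on a wrong line. Depth was recovered from whole reads as well, at 9997865 to 24030674 reads.

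Limma 3.58.1 (R 4.3.3) was fitted to log2(FPKM + 1) over all 13 libraries, 1 mean per group with 7 residual degrees of freedom and a variance trend, for 17199 genes at 1 FPKM or more in a library. It was tested on simulated data whose spread was drawn from D0 and D7 alone. That test does not cover the wider spread within P1 and P8. A fold change on the log2(FPKM + 1) scale understates that of low genes. Replicates of D0, D7, D12, P1 and P8 all differed by more than counting noise, with a chi-square per degree of freedom of 3.16 to 679. Full statistics are given for 10 fixed genes, the 3 called genes with the largest change in each direction and the 2 nearest to 0. The members and lists were chosen with earlier results of these data known. Alternatives were another pseudocount, filter, scaling, fit and block, and each library left out.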

Additional observations from a re-analysis of the deposited data

How the results depend on the processing

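Counts of genes called of the 49 in D7 against D0 stayed within 1.5 times of 33 under every alternative run (25 to 37). Leaving out 1 library at a time, the 49 gave 25 to 35 calls for D7 against D0, 17 to 38 for D12 against D0, 0 for D12 against D7, 3 to 33 for P1 against D12, 2 to 39 for P1 against D0, 0 to 29 for P8 against P1 and 0 to 3 for P8 against D0. Over all genes the same ranges were 2398 to 4629 for D12 against D0 (4001 in the reported fit), 15 to 89 for D12 against D7 (30), 2821 to 5625 for P1 against D12 (4732), 98 to 3817 for P8 against P1 (209) and 891 to 4956 for P8 against D0 (1360).

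With a pseudocount of 5, all-gene counts were 2099 for D7 against D0, 2206 for D12 against D0, 16 for D12 against D7, 2941 for P1 against D12, 2070 for P1 against D0, 107 for P8 against P1 and 835 for P8 against D0, and 5 of the 49 were called for P1 against D12. With 0.1, 13 genes were called for D12 against D7, and 2 of the 49 lay 2-fold below P1 in pCEC, against 18 by mean FPKM with no pseudocount, an alternative chosen after seeing the data. With no fold limit, the counts were 7084, 6682 and 2150 for D7, D12 and P8 against D0. With a filter at 5 FPKM, 11 genes were called for D12 against D7 and 122 for P8 against P1, and with no filter 9 of the 49 for P1 against D0. With the 2 groups compared alone, all-gene counts were 127 for D12 against D7, 0 for P8 against P1 and 496 for P8 against D0, and the 49 gave 2 calls for D12 against D7, 2 for P1 against D12, 5 for P1 against D0 and 0 for P8 against D0. Of genes placed by whole reads in every group, 3 were called for D12 against D7, and voom on recovered reads called 12. Without both P8 libraries, 88 genes were called for D12 against D7, and of the 49, 16 for P1 against D12 and 25 for P1 against D0. The cause of these shifts was not tested.

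With the replicate number as a block, 9 of the 49 were called for P1 against D0 and 0 for P8 against D0, and 11 genes for D12 against D7 and 70 for P8 against P1. Same-numbered libraries correlated at -0.24 to 0.18 in their deviations from group means, which shows no pairing by number but cannot exclude one. In groups of 2 libraries the deviations mirror each other, so both numbers give the same value there. Of 77 gene and comparison pairs followed through every setting, 20 changed sign, in each case where 1 library was left out and where the gene was called neither with nor without it. Levels near 0 rest on few reads, such as the 14 reads of Mki67 in D12 replicate 2, and the pCEC library has no replicate.

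The log2 fold changes of these 20 ranged as follows with 1 library left out. For D12 against D7 they ran from -0.0011 to 0.0793 for Mcm2, -0.64 to 0.16 for Ccnd1 and -0.39 to 0.12 for Ccnd2. For P1 against D12 they ran from -0.87 to 1.14 for Cdk1, -0.99 to 0.54 for Mcm2, -0.0152 to 1.03 for Pcna, -0.20 to 0.55 for Ccnd2 and -0.18 to 2.65 for Foxm1. For P1 against D0 they ran from -1.03 to 0.0176 for Pcna and -1.54 to 0.0123 for E2f8. For P8 against P1 they ran from -0.68 to 2.68 for Mki67, -0.68 to 3.00 for Top2a, -0.39 to 2.78 for Ccnb1, -0.22 to 0.59 for Ccnd1, -2.13 to 0.40 for Ccnd2 and -0.10 to 2.74 for Foxm1. For P8 against D0 they ran from -1.13 to 0.0239 for Cdk1, -1.86 to 0.13 for Ccnb1, -0.10 to 0.79 for Pcna and -1.15 to 0.52 for E2f1. The sign turned without a P1 or P8 library in those last 3 comparisons.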
